A study of Prunus persica and Prunus armeniaca with 129 samples.

Results

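LEA (Prupe.1G104900) and CAP160 (Prupe.2G294400) are 2 of the 26872 genes counted in floral buds of apricot and peach, and they were chosen by identifier because the study names them as cold protection genes of bud dormancy. Late embryogenesis abundant (LEA) proteins are hydrophilic proteins that accumulate in drying seeds and in cold or dehydrated tissue, where they are thought to shield membranes and other proteins. CAP160 takes its name from a cold acclimation protein of spinach, whose transcript accumulates at low temperature. In winter, Prunus floral buds are first endodormant, blocked from within until enough chilling has accumulated, and then ecodormant, held back only by cold weather, before they swell and bloom.

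RNA was sequenced from 60 apricot and 69 peach libraries, each from the floral buds or flowers of 1 tree. The apricots (Prunus armeniaca) were clonally propagated trees of the early blooming genotypes A2137 (Bakour) and A1956 (Palsteyn) and of the late blooming genotypes A660 (Bergeron) and A1267 (Badami), sampled at 0 chill hours (accumulated hours of cool temperature), after 100, 400 and 800 of them, and when sepals or petals became visible. The peaches (Prunus persica) were clones of 4 genotypes from a single F2 cross, A209 and A340 with a low chilling requirement and A318 and A323 with a high one, sampled at 0, 100 and 600 chill hours and at pre-bloom, with A318 and A323 also at 1000 chill hours. No tree was treated, so within a species genotype and sampling time are the only factors. With 2 genotypes in each class the class cannot be told apart from other differences between genotypes. The species also differed in site, sequencing platform, read type and stages sampled, which cannot be told apart from species. At 800 chill hours the early apricots were sampled as flowers, after the petal visible stage, and the late ones as buds. Each of the 24 apricot groups (a genotype at 1 sampling) was represented by 3 libraries in 14 cases, by 2 in 8 and by 1 in 2, namely A2137 and A1267 at 0 chill hours. The peach groups had 4 libraries, except A318 at 0 and 100 chill hours and A323 at 600 chill hours with 3. Groups follow the sample labels, and for A323 a supplementary list of libraries differs from them on whether 1 library belongs to 100 or 600 chill hours, which bears on the A323 values at both times.

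Apricot libraries held 7593825 to 26253101 counts and peach libraries 494799 to 26858662 counts, and 9 peach libraries lay under the peach median divided by 4. Of those 9, 5 were among the 8 libraries at 1000 chill hours. The study reports contamination with ribosomal RNA in a majority of the peach libraries. It found the ribosomal share to be a significant factor in peach expression, without a significant interaction with genotype or time point. The part of ribosomal RNA in depth or in the levels of these genes was not tested. Levels are in CPM, the counts of a gene relative to all counts of its library, on library sizes scaled by the TMM method, and 3 counts are worth at most 0.395 CPM in apricot and 6.06 CPM in peach, a floor that covers counting error only. The smallest count behind any value was 39 for LEA and 55 for CAP160 in apricot, and 188 and 113 for the same genes in peach. DAM6, a dormancy-associated MADS-box gene, ranged from 7.07 to 59.98 CPM (unscaled libraries) in low chill peach buds at 600 chill hours, against 166 to 627 CPM in high chill ones. In apricot buds at 400 chill hours it ranged from 0.330 to 41.5 CPM in the early genotypes, against 162 to 333 CPM in the late ones. In whole buds, fewer cells that make a transcript and less transcript per cell cannot be told apart.

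Group means of both genes were highest at 100 or 400 chill hours, except that of LEA in A2137, which was highest in its 1 library at 0 chill hours. They were lowest at sepal visible, petal visible or pre-bloom, except in A209 and A340, where they were lowest at 600 chill hours. LEA took between 0.000282% and 0.322% of the counts of an apricot library and between 0.00194% and 0.444% of those of a peach library. The highest group mean of LEA was 217 times the lowest in A1267, 114 times in A1956 and in A660, and 31.3 times in A2137, while for CAP160 this span was between 22.6-fold (A2137) and 55.6-fold (A1956) in apricot. In peach the span was 15.96-fold to 71.3-fold for LEA and 19.8-fold to 88.2-fold for CAP160. These spans are descriptions, since the groups at their ends were picked by their values.

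**Figure D1:**
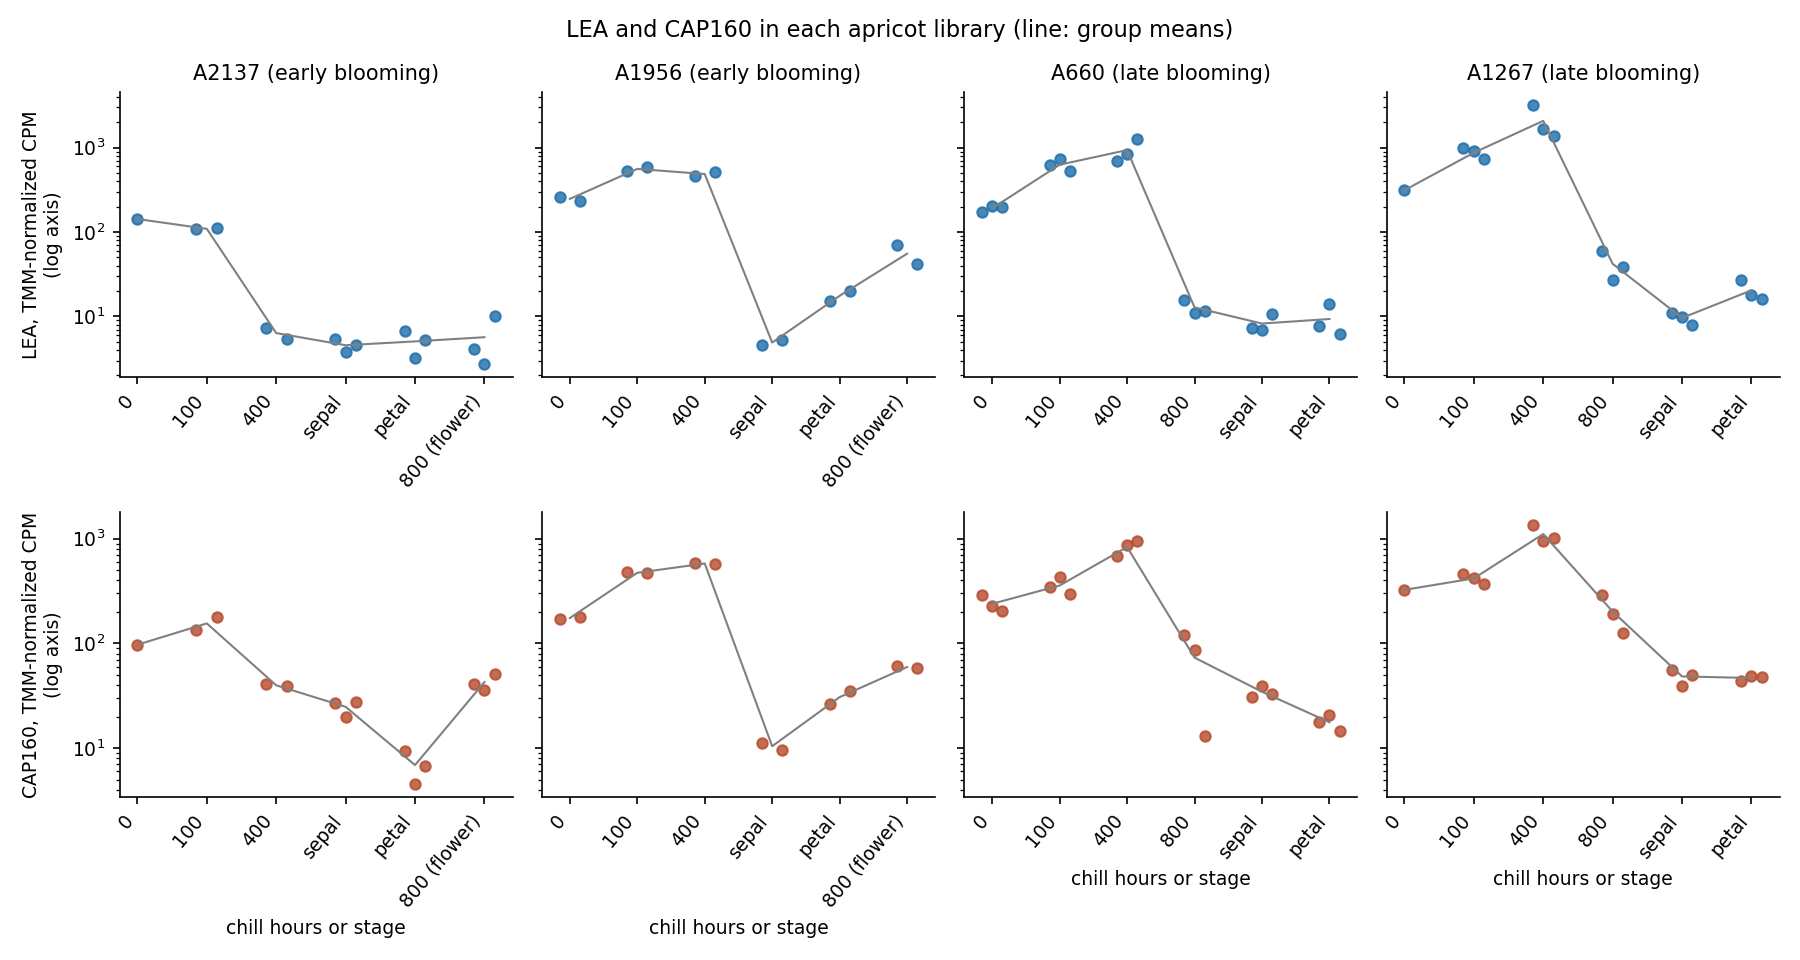
TMM-normalized CPM (log axis) of LEA (upper row) and CAP160 (lower row) in each of the 60 apricot libraries, by chill hours or stage in the order each genotype passed through them; points are libraries and the line joins group means. LEA fell to between 4.61 and 5.19 CPM in A1956 at sepal visible, against 460.2 to 514 CPM at 400 chill hours, and 1 A660 library at 800 chill hours stands apart in CAP160 with 12.98 CPM.

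In the late blooming apricots both transcripts accumulated up to 400 chill hours. In A660, LEA measured 172, 205 and 196 CPM at 0 chill hours, 623, 729.6 and 532 CPM at 100, and 692, 846 and 1272 CPM at 400. CAP160 in the same trees measured 287, 227 and 203 CPM, then 342, 431 and 299 CPM, then 679, 865 and 957 CPM. For both genes all libraries at 100 chill hours lay above all at 0, and the groups at 100 and 400 did not overlap for CAP160 but did for LEA. At 100 chill hours LEA was higher than at 0 by 1.72 on the log2 scale (SE 0.328, edgeR quasi-likelihood test, adjusted p = 7.13e-05), a step in which 14% of the 22472 genes tested were called higher. CAP160 differed there by 0.58 (SE 0.334, edgeR adjusted p = 0.212). In the next step, to 400 chill hours, CAP160 rose by 1.22 (SE 0.337, edgeR adjusted p = 0.00758, 11% of genes called higher) and LEA differed by 0.58 (SE 0.320, edgeR adjusted p = 0.204). Whether the 2 genes differ in either step was not tested. The study singled out both genes from these same libraries, so the tests on them are not independent evidence of their direction.

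A1267 reached the highest level of either gene in apricot. Its 1 library at 0 chill hours held 313 CPM of LEA and 325 CPM of CAP160. At 100 chill hours LEA measured 986, 904 and 725 CPM and at 400 chill hours 3209.9, 1647 and 1382 CPM, without overlap. CAP160 measured 465, 420.2 and 369.7 CPM at 100 and 1352, 959.7 and 1014 CPM at 400, also without overlap. From 100 to 400 chill hours LEA rose by 1.25 (SE 0.323, edgeR adjusted p = 0.00419) and CAP160 by 1.41 (SE 0.339, edgeR adjusted p = 0.00227), with 9.87% of genes called higher. The LEA call rests on the replicate with 3209.9 CPM, without which the change was 0.80 (edgeR adjusted p = 0.0922), and it also failed with only the compared libraries in the fit (adjusted p = 0.0733).

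In the early blooming A1956 both genes rose in the first 100 chill hours. LEA measured 261 and 233 CPM at 0 chill hours, 531 and 589.7 CPM at 100 and 460.2 and 514 CPM at 400. CAP160 measured 170.1 and 179.5 CPM, then 478 and 468 CPM, then 582 and 578 CPM. For both genes the libraries at 0 and at 100 chill hours did not overlap. The first step was 1.18 for LEA (SE 0.396, edgeR adjusted p = 0.0264) and 1.44 for CAP160 (SE 0.415, edgeR adjusted p = 0.00955), against 11.7% of genes called higher. With 2 libraries a group these calls are fragile. Leaving out any 1 of the 4 libraries put LEA above the threshold (adjusted p 0.0615 to 0.134), and leaving out either library at 0 chill hours did so for CAP160 (0.0905 without replicate 1 and 0.0514 without replicate 2). From 100 to 400 chill hours LEA differed by -0.20 (SE 0.390, 95% interval -0.97 to 0.56) and CAP160 by 0.29 (SE 0.407, -0.50 to 1.09). The difference between A1956 and the mean of A660 and A1267 in that step was -1.12 for LEA (SE 0.453, edgeR adjusted p = 0.256) and -1.02 for CAP160 (SE 0.472, edgeR adjusted p = 0.353), and neither passed the test. In the step before it, A1956 differed from A660 by -0.53 for LEA (SE 0.505, edgeR adjusted p = 0.968) and 0.86 for CAP160 (SE 0.527, edgeR adjusted p = 0.872).

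In A2137, the other early genotype, LEA was no higher at 100 chill hours than in the library at 0. LEA measured 143 CPM in the 1 library at 0 chill hours and 108 and 111 CPM at 100, and by 400 chill hours it stood at 7.34 and 5.37 CPM. CAP160 measured 97.2 CPM, then 133 and 177 CPM, then 40.7 and 38.9 CPM. Between 100 and 400 chill hours no libraries overlapped for either gene. The log2 difference was -4.09 for LEA (SE 0.452) and -1.96 for CAP160 (SE 0.424). This step, in which 19.8% of genes were called lower, lies within the contrast of ecodormant with endodormant buds from which the study drew both genes, so it carries no test here. The same holds for A660 between 400 and 800 chill hours, where LEA stood at 15.6, 11.1 and 11.7 CPM at 800 chill hours, a log2 difference of -6.19 (SE 0.405), in a step with 21.9% of genes called lower. CAP160 there held 120.0, 86.5 and 12.98 CPM, a difference of -3.50 (SE 0.368), with replicate 3 far under the other 2 while its LEA was not.

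The endodormant arm of that contrast also held the buds of A1267 up to 800 and of A1956 up to 400 chill hours, so the values below that rest on them, or on the ecodormant buds of A2137 and A660, helped to choose the genes, and their tests are not independent evidence. In A1267, LEA fell to 60.4, 26.8 and 38.9 CPM at 800 chill hours, against 3209.9, 1647 and 1382 CPM at 400, and CAP160 fell to 287, 192 and 126 CPM, against 1352, 959.7 and 1014 CPM. The groups did not overlap, and the changes were -5.63 for LEA (SE 0.390, edgeR adjusted p = 1.79e-14) and -2.46 for CAP160 (SE 0.351, edgeR adjusted p = 6.81e-07), in a step with 13.8% of genes called lower. In A1956 the drop came between 400 chill hours and sepal visible. LEA was down to 4.61 and 5.19 CPM (-6.63, SE 0.509, edgeR adjusted p = 1.73e-13) and CAP160 to 11.2 and 9.61 CPM (-5.79, SE 0.506, edgeR adjusted p = 3.69e-12), with 20.7% of genes called lower. Each of these 4 calls kept its direction and side of the threshold under every alternative run.

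From 800 chill hours to sepal visible in A1267, LEA fell further to 10.98, 9.96 and 7.88 CPM (-2.13, SE 0.346, edgeR adjusted p = 1.23e-06) and CAP160 to 55.6, 39.4 and 50.2 CPM (-2.06, SE 0.348, edgeR adjusted p = 2.47e-06), where 30.7% of genes were called lower. In A660 LEA differed by -0.64 in that step (SE 0.351, edgeR adjusted p = 0.120), and CAP160 by -1.09 (SE 0.342, edgeR adjusted p = 0.00635, 26.9% of genes called lower). Its CAP160 groups overlapped, with 31.04, 39.5 and 33.1 CPM at sepal visible, against 120.0, 86.5 and 12.98 CPM at 800 chill hours. Without replicate 1 at 800 chill hours the CAP160 change was -0.53 (edgeR adjusted p = 0.204). In A2137 neither gene passed the test from 400 chill hours to sepal visible, with LEA at 5.37, 3.75 and 4.55 CPM (edgeR adjusted p = 0.348) and CAP160 at 26.99, 19.8 and 27.6 CPM (edgeR adjusted p = 0.153) at sepal visible.

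Between sepal and petal visible LEA rose in A1956, to 15.4 and 19.8 CPM, against 4.61 and 5.19 CPM (1.84, SE 0.437, edgeR adjusted p = 7.35e-04, 20.7% of genes called higher), and CAP160 rose with it, to 26.2 and 35.2 CPM, against 11.2 and 9.61 CPM (1.55, SE 0.435, edgeR adjusted p = 0.00373). In A1267 LEA rose to 27.03, 17.9 and 16.3 CPM, against 10.98, 9.96 and 7.88 CPM (1.09, SE 0.344, edgeR adjusted p = 0.0122, 16.8% of genes called higher), a call lost without petal visible replicate 1 (0.81, adjusted p = 0.0951) or without sepal visible replicate 3 (0.96, adjusted p = 0.0641). CAP160 fell in A2137 to 9.40, 4.55 and 6.71 CPM, against 26.99, 19.8 and 27.6 CPM (-1.85, SE 0.369, edgeR adjusted p = 7.50e-05, 23.6% of genes called lower). It also fell in A660, to 17.8, 20.5 and 14.7 CPM, against 31.04, 39.5 and 33.1 CPM (-0.97, SE 0.351, edgeR adjusted p = 0.0224, 22.8% of genes called lower), a call lost without sepal visible replicate 2 (-0.86, adjusted p = 0.0737) or petal visible replicate 3 (-0.87, adjusted p = 0.0825). None of these groups overlapped between the stages. LEA in A2137 and A660 and CAP160 in A1267 differed by 0.16, 0.16 and -0.05 and did not pass the test.

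In A1956 flowers, at 800 chill hours, LEA measured 69.4 and 41.5 CPM, against 15.4 and 19.8 CPM at petal visible (1.66, SE 0.414, edgeR adjusted p = 0.00254, 12.5% of genes called higher). That call was lost without flower replicate 1 (1.23, adjusted p = 0.0742) or petal visible replicate 1 (1.48, adjusted p = 0.0555). CAP160 measured 60.7 and 58.3 CPM, against 26.2 and 35.2 CPM (0.96, SE 0.421, edgeR adjusted p = 0.0931), without overlap, and it passed the test with the compared libraries alone (edgeR adjusted p = 0.00436). In A2137 flowers CAP160 rose to 40.7, 36.3 and 51.3 CPM, against 9.40, 4.55 and 6.71 CPM (2.64, SE 0.373, edgeR adjusted p = 1.05e-07, 28.7% of genes called higher). LEA in those flowers measured 4.06, 2.74 and 10.2 CPM, against 6.70, 3.22 and 5.27 CPM (0.15, SE 0.369, edgeR adjusted p = 0.757).

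**Figure D2:**
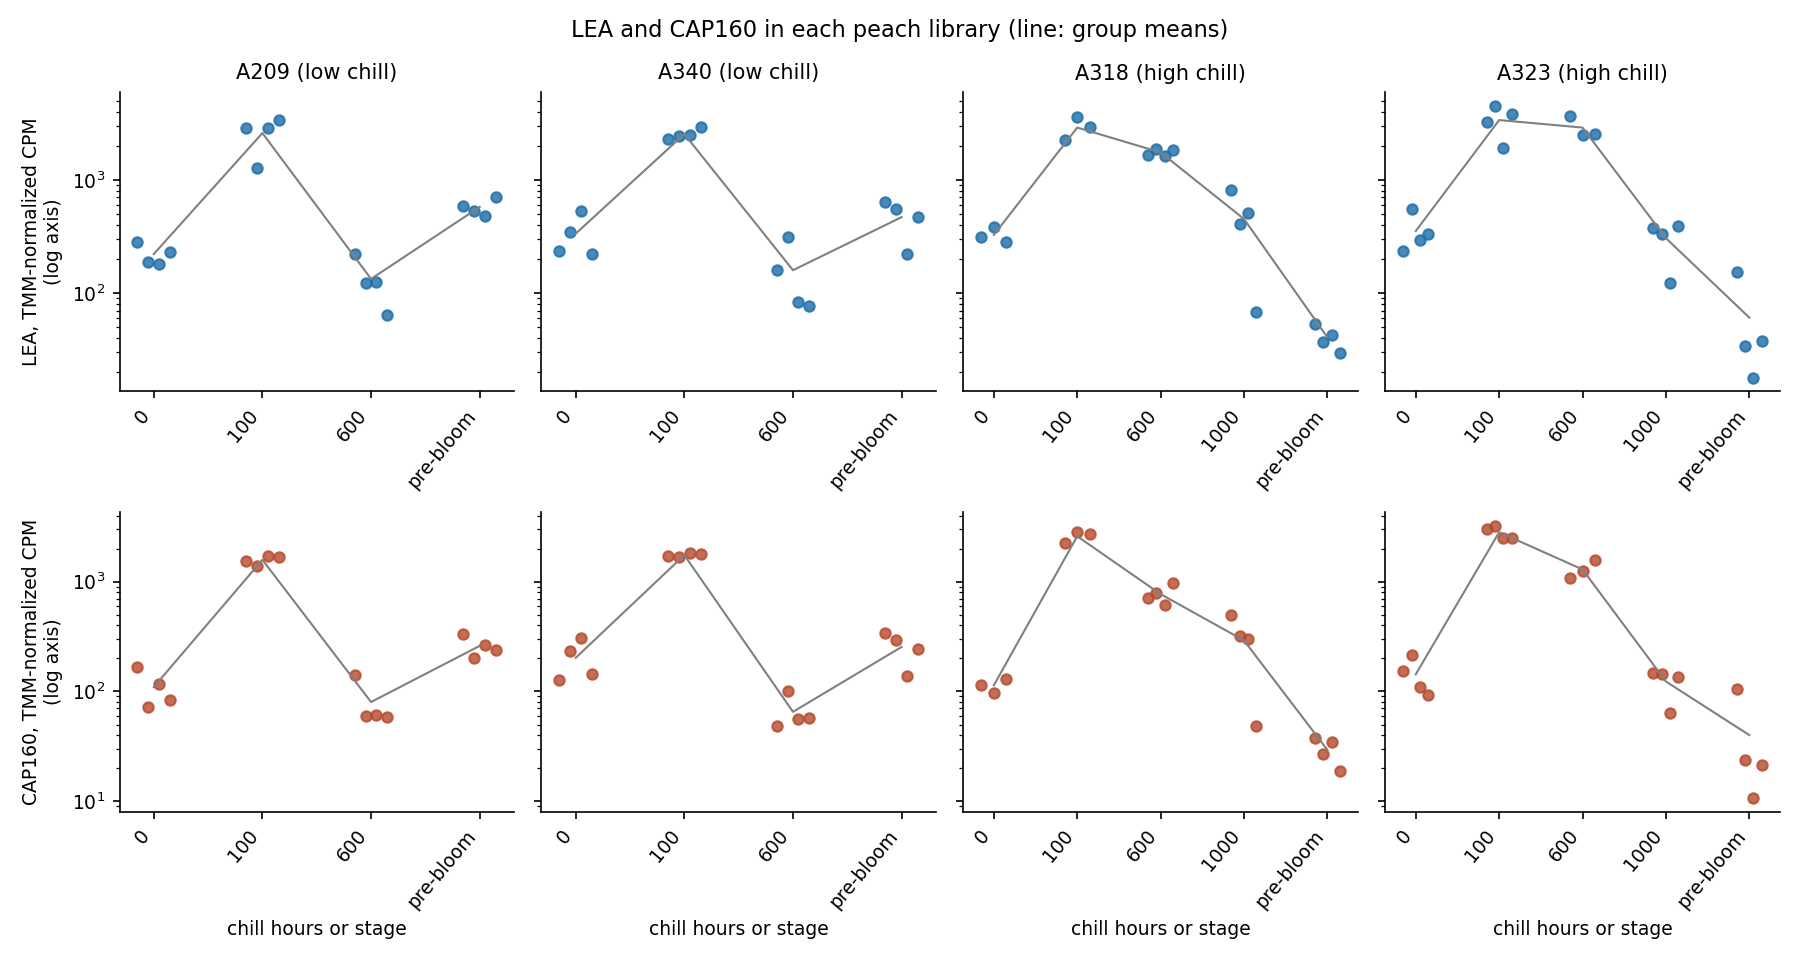
TMM-normalized CPM (log axis) of LEA (upper row) and CAP160 (lower row) in each of the 69 peach libraries, by chill hours or stage; points are libraries and the line joins group means. Both genes stood highest at 100 chill hours in all 4 genotypes, and from 600 chill hours to pre-bloom they rose in A209 and A340, while in A318 and A323 they fell from 1000 chill hours to pre-bloom.

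In peach both genes rose over the first 100 chill hours in all 4 genotypes, with no overlap between the groups. In A209, LEA measured 2877, 1264, 2878 and 3364 CPM at 100 chill hours, against 285, 189, 182 and 229.7 CPM at 0. CAP160 measured 1552, 1398, 1704 and 1678 CPM, against 167, 72.9, 116 and 82.9 CPM. The lowest library at 100 chill hours was thus well above the highest at 0 for both genes. In A340, A318 and A323 the means of LEA at 100 chill hours were 2546, 2904 and 3383 CPM, against 335, 327 and 354 CPM at 0. Those of CAP160 were 1747, 2593 and 2821 CPM, against 203, 114 and 143 CPM.

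The rise in LEA was 3.55 in A209 (SE 0.502, edgeR adjusted p = 3.10e-07), 2.93 in A340 (SE 0.488, edgeR adjusted p = 1.17e-05), 3.15 in A318 (SE 0.568, edgeR adjusted p = 4.39e-05) and 3.26 in A323 (SE 0.494, edgeR adjusted p = 8.47e-07). For CAP160 it was 3.86 (SE 0.463, edgeR adjusted p = 5.00e-09), 3.11 (SE 0.447, edgeR adjusted p = 6.31e-07), 4.51 (SE 0.550, edgeR adjusted p = 1.17e-08) and lastly 4.30 (SE 0.472, edgeR adjusted p = 2.37e-10) in the same order. Of the 22574 genes tested, 6.53% were called higher in A209, 8% in A340, 6.49% in A318 and 7.83% in A323. The study describes a rise of both genes with chilling in these same libraries, so these tests are not independent evidence of its direction. The low chill genotypes differed from the high chill ones in this step by 0.04 for LEA (SE 0.472, 95% interval -0.89 to 0.96, edgeR adjusted p rounded to 1) and by -0.92 for CAP160 (SE 0.431, -1.76 to -0.07, edgeR adjusted p = 0.494), so a difference between the classes in the size of the rise was not shown.

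In the low chill genotypes both genes were low at 600 chill hours. In A209, LEA stood at 222, 122, 126 and 64.3 CPM and CAP160 at 142, 59.5, 60.6 and 58.95 CPM at 600 chill hours. In A340, LEA stood at 161, 316, 83.2 and 77.6 CPM and CAP160 at 48.2, 100.1, 55.6 and 57.2 CPM. All these values lay under every library of the same genotype at 100 chill hours. The log2 differences were -4.28 (SE 0.519) and -4.00 (SE 0.511) for LEA, and -4.31 (SE 0.472) and -4.74 (SE 0.481) for CAP160, in A209 and then A340, where 11.4% and 12.6% of genes were called lower. The study drew both genes from the low chill buds at 600 chill hours, so these values carry no test. The high chill buds at 600 chill hours were the other side of that contrast. Tests of steps that start or end at 600 chill hours thus rest on values that helped to choose the genes. So does the test of A323 against A318 at 600 chill hours.

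The study places the high chill genotypes in endodormancy at 600 chill hours, and LEA passed the test in neither of them between 100 and 600. A318 held 1670.1, 1887, 1622 and 1828 CPM of LEA at 600 chill hours, against 2235, 3568 and 2909 CPM at 100 (-0.73, SE 0.486, edgeR adjusted p = 0.362). A323 held 3675, 2481 and 2553 CPM, against 3278, 4539, 1909 and 3806 CPM (-0.22, SE 0.491, edgeR adjusted p = 0.825). The A318 groups did not overlap and the A323 groups did. CAP160 fell in A318 to 711, 785, 608 and 976 CPM, against 2230.4, 2853 and 2695 CPM (-1.75, SE 0.445, edgeR adjusted p = 0.00433, 6.73% of genes called lower). In A323 it stood at 1074, 1242 and 1561 CPM, against 3049, 3235, 2486 and 2514 CPM, without overlap (-1.13, SE 0.458, edgeR adjusted p = 0.0934).

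At 1000 chill hours both high chill genotypes had dropped. By the chilling requirements the study lists, A318 had passed its requirement by then and A323 had not. The study reports that these A318 buds nevertheless clustered nearer to endodormant ones, and it did not assay dormancy directly. A323 held 379, 332, 123 and 389 CPM of LEA, against 3675, 2481 and 2553 CPM at 600 (-3.25, SE 0.511, edgeR adjusted p = 3.95e-06, 8.83% of genes called lower). Its CAP160 held 148, 145, 63.3 and 135 CPM, against 1074, 1242 and 1561 CPM (-3.39, SE 0.468, edgeR adjusted p = 2.19e-07). A318 held 822, 409, 509 and 68.6 CPM of LEA, against 1670.1, 1887, 1622 and 1828 CPM (-1.96, SE 0.472, edgeR adjusted p = 0.00149, 11.7% of genes called lower), and 499, 317, 301 and 48.9 CPM of CAP160, against 711, 785, 608 and 976 CPM (-1.42, SE 0.423, edgeR adjusted p = 0.00873). No group overlapped with its earlier one. In A318 the library with 68.6 CPM of LEA was the only one of the 4 that was not of low depth. Without it the CAP160 change was -1.05 (edgeR adjusted p = 0.0651), and with it alone LEA changed by -4.77 and CAP160 by -4.07. The change in A323 minus that in A318 was -1.29 for LEA (SE 0.668, edgeR adjusted p = 0.546) and -1.98 for CAP160 (SE 0.610, edgeR adjusted p = 0.254), and without the low-depth libraries, which leaves 1 A318 library at 1000 chill hours, it was 1.22 and 0.44.

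From 1000 chill hours to pre-bloom, LEA fell again in A318, to 53.3, 37.2, 42.9 and 29.6 CPM (-3.46, SE 0.502, edgeR adjusted p = 3.00e-07, 12.9% of genes called lower), and CAP160 to 37.7, 26.8, 34.4 and 18.7 CPM (-3.30, SE 0.454, edgeR adjusted p = 9.37e-08). Both A318 calls rest on the 3 low-depth libraries at 1000 chill hours. Without them 1 library is left there, and the changes from it were -0.69 for LEA and -0.68 for CAP160, given as values with no test. The part of depth in these values was not tested. In A323, LEA fell to 154, 34.4, 17.8 and 37.5 CPM (-2.34, SE 0.479, edgeR adjusted p = 1.64e-04, 9.17% of genes called lower) and CAP160 to 104, 23.7, 10.7 and 21.5 CPM (-1.64, SE 0.429, edgeR adjusted p = 0.00331). Replicate 1 of A323 stood above its 3 group members for both genes and overlapped with the 1000 chill hour libraries. Without it the CAP160 change was -2.73 (edgeR adjusted p = 1.88e-06). Both A323 calls held without its low-depth libraries, at -2.05 (edgeR adjusted p = 0.00288) and -1.41 (edgeR adjusted p = 0.0279).

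From 600 chill hours to pre-bloom the low chill genotypes rose. In A209, LEA rose to 590.3, 537, 482 and 701 CPM at pre-bloom, against 222, 122, 126 and 64.3 CPM at 600 chill hours (2.12, SE 0.474, edgeR adjusted p = 9.54e-04, 6.43% of genes called higher). CAP160 rose to 337, 202, 265 and 237 CPM, against 142, 59.5, 60.6 and 58.95 CPM (1.70, SE 0.426, edgeR adjusted p = 0.00335). In A340, CAP160 rose to 343, 292, 139.7 and 243 CPM, against 48.2, 100.1, 55.6 and 57.2 CPM (1.96, SE 0.428, edgeR adjusted p = 5.55e-04, 9.67% of genes called higher). LEA in A340 measured 634, 551, 221 and 472 CPM, against 161, 316, 83.2 and 77.6 CPM (1.56, SE 0.465, edgeR adjusted p = 0.0115). Its groups overlapped in 1 library on each side, and the call was lost without 600 chill hour replicate 3 (1.34, adjusted p = 0.0515) or replicate 4 (1.33, adjusted p = 0.0583) and without the low-depth libraries (1.32, adjusted p = 0.0769). The other 3 groups did not overlap.

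Early and late blooming apricots were compared at each sampling to ask whether the genes follow bloom date. At 400 chill hours the early genotypes held 5.37 to 514 CPM of LEA (median 234 CPM, n = 4), against 692 to 3209.9 CPM in the late ones (median 1327 CPM, n = 6). For CAP160 the ranges were 38.9 to 582 CPM and 679 to 1352 CPM. The classes did not overlap, and the log2 fold change (early minus late) was -2.61 for LEA (SE 0.787) and -1.65 for CAP160 (SE 0.574), where 9.22% of 21778 genes were called lower. A2137 at this sampling belongs to the ecodormant arm and the other 3 genotypes to the endodormant arm of the contrast the genes were named from, so this comparison is a description and carries no test. Within the early class the genotypes were far apart, with A2137 at 7.34 and 5.37 CPM of LEA and A1956 at 460.2 and 514 CPM. In a fit by genotype, which takes each class as the mean of its 2 genotypes, the values were -4.64 for LEA and -2.66 for CAP160.

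At 0 and 100 chill hours neither gene differed between the bloom classes beyond the spread, at -0.06 for LEA (95% interval -1.70 to 1.58) and -0.81 for CAP160 (-2.09 to 0.47) at 0, and -1.16 (-2.60 to 0.27) and -0.30 (-1.37 to 0.76) at 100. In the fit by genotype, where the spread between genotypes of a class does not enter, the class difference at 100 chill hours was -1.58 for LEA (edgeR adjusted p = 1.23e-05). At 800 chill hours CAP160 was lower in early flowers than in late buds, 36.3 to 60.7 CPM against 12.98 to 287 CPM (-1.48, SE 0.528, edgeR adjusted p = 0.0193, 21.5% of genes called lower), with overlap in both directions. This call was lost without A1267 replicate 1 (-1.12, adjusted p = 0.0836), and tissue and class cannot be told apart at that sampling. LEA differed there by -0.12 (SE 0.673, edgeR adjusted p = 0.903). At sepal visible all early libraries lay under all late ones, with 3.75 to 5.37 CPM against 6.82 to 10.98 CPM for LEA and 9.61 to 27.6 CPM against 31.04 to 55.6 CPM for CAP160. The differences were -0.93 (SE 0.705, edgeR adjusted p = 0.458) for LEA and -1.12 for CAP160 (SE 0.525, edgeR adjusted p = 0.191) in the class fit, and they passed in the fit by genotype (edgeR adjusted p = 0.0101 and 1.77e-04). At petal visible they were -0.56 and -0.98 (edgeR adjusted p = 0.694 and 0.264).

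**Figure D3:**
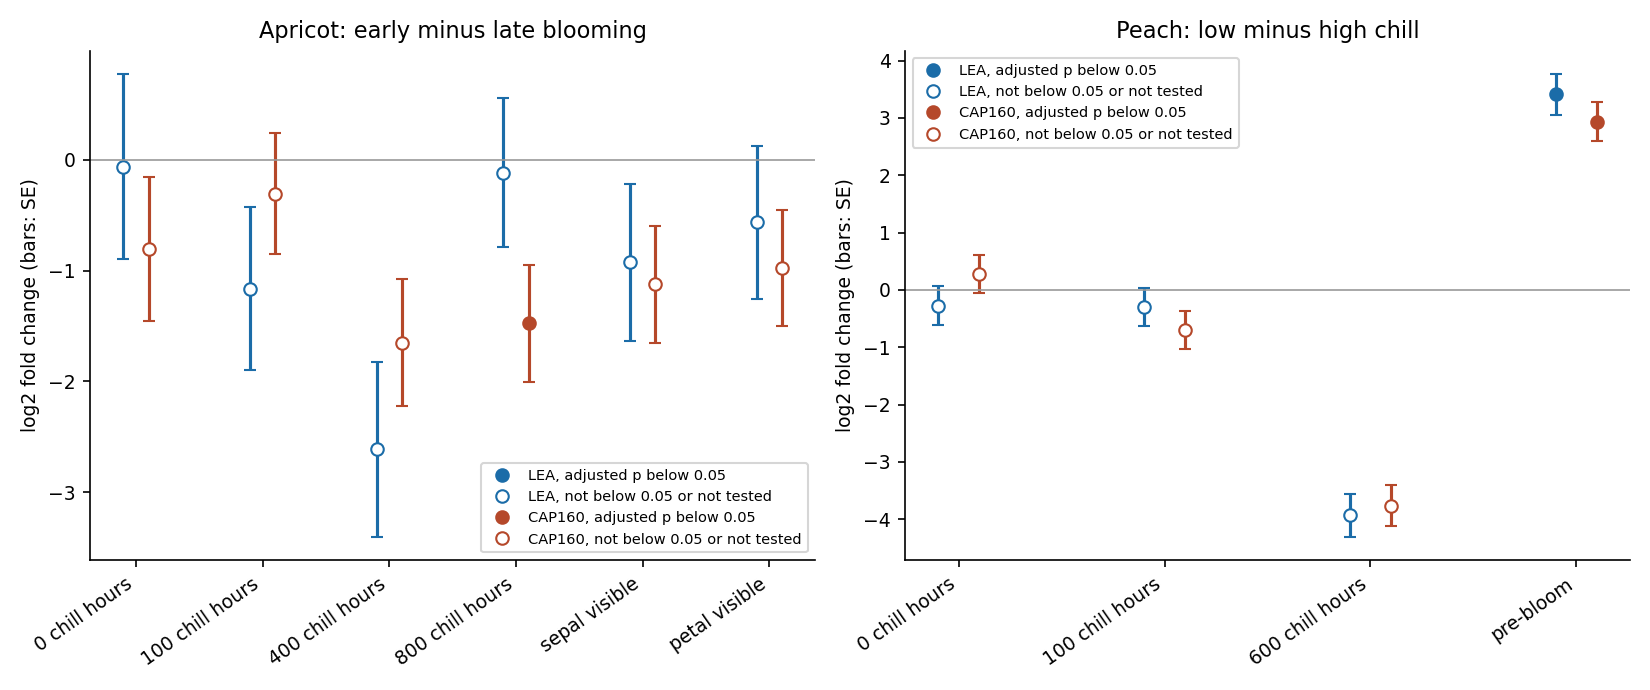
Log2 fold change of LEA and CAP160 between the early and late blooming apricots (left) and between the low and high chill peaches (right) at each sampling; bars are SE, filled points have an edgeR adjusted p below 0.05. Neither the apricot values at 400 chill hours nor the peach values at 600 were tested, and at pre-bloom both genes were higher in the low chill class, by 3.41 and 2.94.

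In peach, low chill buds held less of both transcripts than high chill buds at 600 chill hours and more at pre-bloom. At 600 chill hours low chill buds held 64.3 to 316 CPM of LEA (median 124 CPM, n = 8), against 1622 to 3675 CPM in high chill buds (median 1887 CPM, n = 7), a log2 difference of -3.94 (SE 0.368). CAP160 held 48.2 to 142 CPM, against 608 to 1561 CPM, a difference of -3.77 (SE 0.359). This is the contrast the genes were named from, with 19.8% of 20798 genes called lower, and it is given as a description. At pre-bloom, low chill buds held 221 to 701 CPM of LEA (median 544 CPM, n = 8), against 17.8 to 154 CPM in high chill buds (median 37.3 CPM, n = 8). The classes did not overlap, and LEA was higher by 3.41 (SE 0.356, edgeR adjusted p = 9.78e-12). CAP160 held 139.7 to 343 CPM, against 10.7 to 104 CPM, and was higher by 2.94 (SE 0.344, edgeR adjusted p = 3.93e-10), where 16.1% of genes were called higher. Without the low-depth libraries the differences were 3.34 and 2.76. Libraries of different genotypes in a class count as replicates in this test. Pre-bloom is a developmental stage and was reached on earlier calendar dates by the low chill trees, so date and class cannot be told apart there.

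At 0 chill hours the chill classes differed by -0.27 for LEA (SE 0.335, 95% interval -0.93 to 0.38) and 0.28 for CAP160 (SE 0.331, -0.37 to 0.93), and at 100 chill hours by -0.30 for LEA (SE 0.334, -0.95 to 0.36), none past the threshold. CAP160 at 100 chill hours ranged from 1398 to 1818 CPM in low chill buds, against 2230.4 to 3235 CPM in high chill buds, without overlap. Its difference of -0.70 (SE 0.328) missed the threshold in the fit of all libraries (edgeR adjusted p = 0.222) and passed it with the compared libraries alone (edgeR adjusted p = 2.45e-04). Among the high chill genotypes, A323, which has the higher chilling requirement, differed from A318 by 0.73 for LEA and 0.75 for CAP160 at 600 chill hours and by 0.57 and 0.43 at pre-bloom. At 1000 chill hours the differences were -0.56 (SE 0.458, edgeR adjusted p = 0.579) for LEA and -1.23 for CAP160 (SE 0.423, edgeR adjusted p = 0.126). None of the 6 passed the test. Without A318 replicate 4 the CAP160 difference at 1000 chill hours passed it (-1.59, adjusted p = 0.0460), and without the low-depth libraries, with 1 A318 library left, both differences there changed sign.

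The 2 genes tracked each other closely over the groups. Over the 24 apricot group means of log2 CPM, LEA and CAP160 correlated with r = 0.94, and over the 18 peach group means with r = 0.98. Group means share libraries between the 2 genes and their scaling, so this is a description. By the smaller of the 2 values, CAP160 was the gene most like LEA, and LEA the gene most like CAP160, of the 21046 other genes that were tested in both species. The study had named both genes for similar profiles in these same libraries, so this rank is not independent evidence that they go together. After CAP160, the genes most like LEA were Prupe.3G265400 (r = 0.91 in apricot and 0.92 in peach), Prupe.7G087200 (0.94 and 0.90), annotated by the study as an adenine nucleotide alpha hydrolase-like protein, Prupe.1G360500 (0.90 and 0.92) and Prupe.7G161100 (0.89 and 0.96). After LEA, those most like CAP160 were Prupe.7G161100 (0.91 and 0.92), Prupe.4G181300 (0.90 and 0.93), Prupe.2G052500 (0.91 and 0.89), annotated as ubiquitin-specific protease UBP13, and Prupe.5G065400 (0.92 and 0.89). Prupe.7G161100, COR47 in the annotation, is thus on both lists, and COR47 is a cold-induced dehydrin in Arabidopsis. With correlation of ranks (Spearman), COR47 stayed on the list of CAP160 but not on that of LEA.

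**Figure D4:**
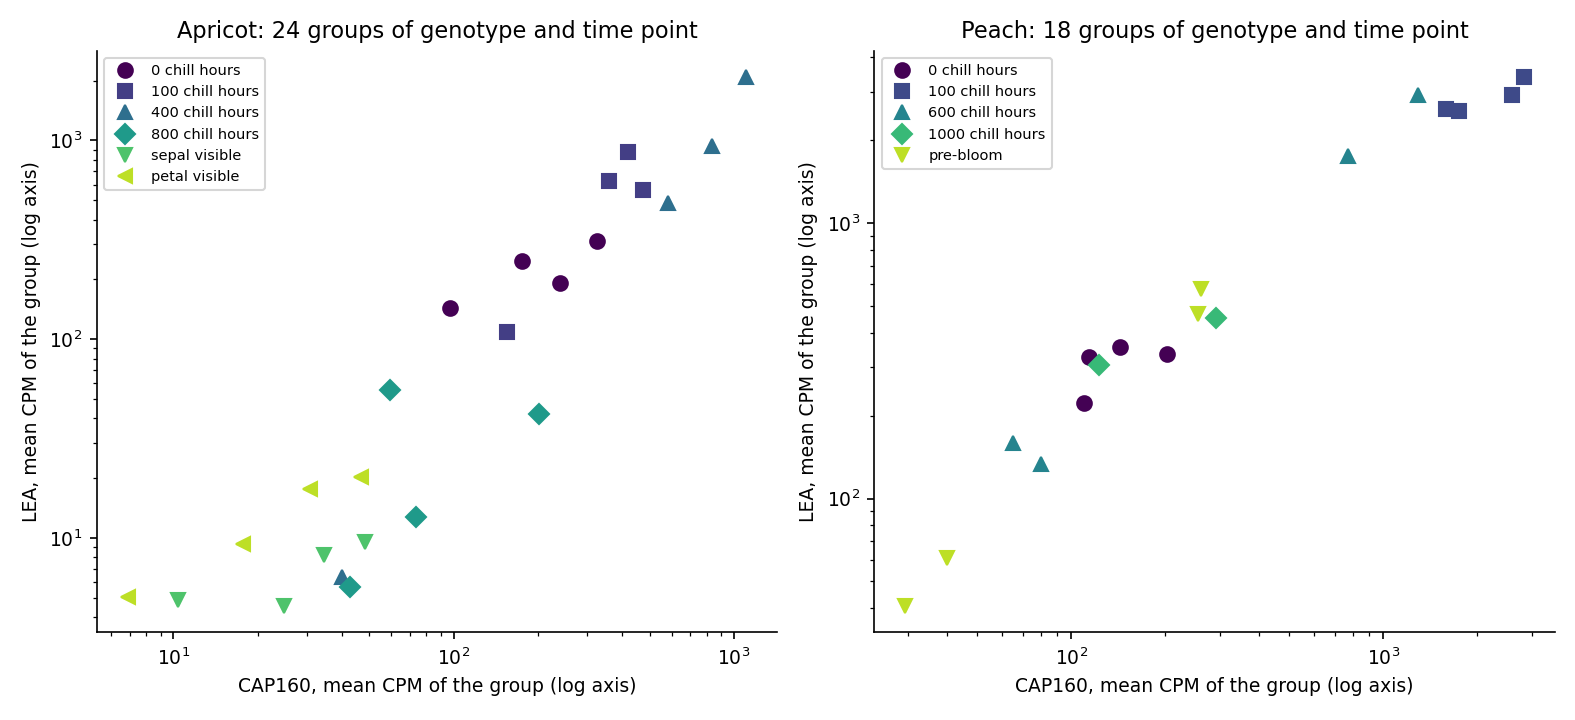
Mean CPM of LEA against mean CPM of CAP160 (both log axes) for the 24 apricot groups (left) and the 18 peach groups (right) of genotype and time point, with marker and colour giving the sampling. The groups lie along a rising line in both species (r = 0.94 and r = 0.98 on log2 CPM), and in apricot the groups around bud opening lie lowest.

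Within groups, the deviations of the 2 genes from their group means in log2 CPM correlated with r = 0.85 over the 69 peach libraries and r = 0.38 over the 58 apricot libraries in groups of 2 or more. The signs were the same in 53 of 69 and 36 of 58 libraries. These deviations include any error in scaling a library, which both genes share.

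The ratio of LEA to CAP160 counts, in which depth and scaling cancel, spanned a wider range in apricot than in peach. Peach has no libraries at sepal visible, petal visible or of flowers, so the ranges cover unlike stages. On the log2 scale it ranged from -3.71 to 1.25 over the 60 apricot libraries and from -0.38 to 1.98 over the 69 peach libraries. In A1267 it averaged 0.82 ± 0.40 at 400 chill hours, -2.26 ± 0.57 at 800 and -2.33 ± 0.34 at sepal visible (SD, n = 3 each). In A2137 it averaged -0.49 ± 0.26 at 100 chill hours (SD, n = 2), -2.66 ± 0.27 at 400 (SD, n = 2), -2.43 ± 0.14 at sepal visible, -0.44 ± 0.08 at petal visible and -3.12 ± 0.71 in flowers (SD, n = 3 each). The ratio in A2137 at petal visible was thus near that at 100 chill hours. In A1956 the ratio stayed between -1.28 and 0.62 in all libraries. In high chill peach it stood lowest at 100 chill hours, with 0.15 ± 0.16 in A318 (SD, n = 3) and 0.20 ± 0.44 in A323 (SD, n = 4) at 100 chill hours, against 1.52 ± 0.44 (SD, n = 3) and 1.30 ± 0.52 (SD, n = 4) at 0. These differences in ratio were not tested.

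**Figure D5:**
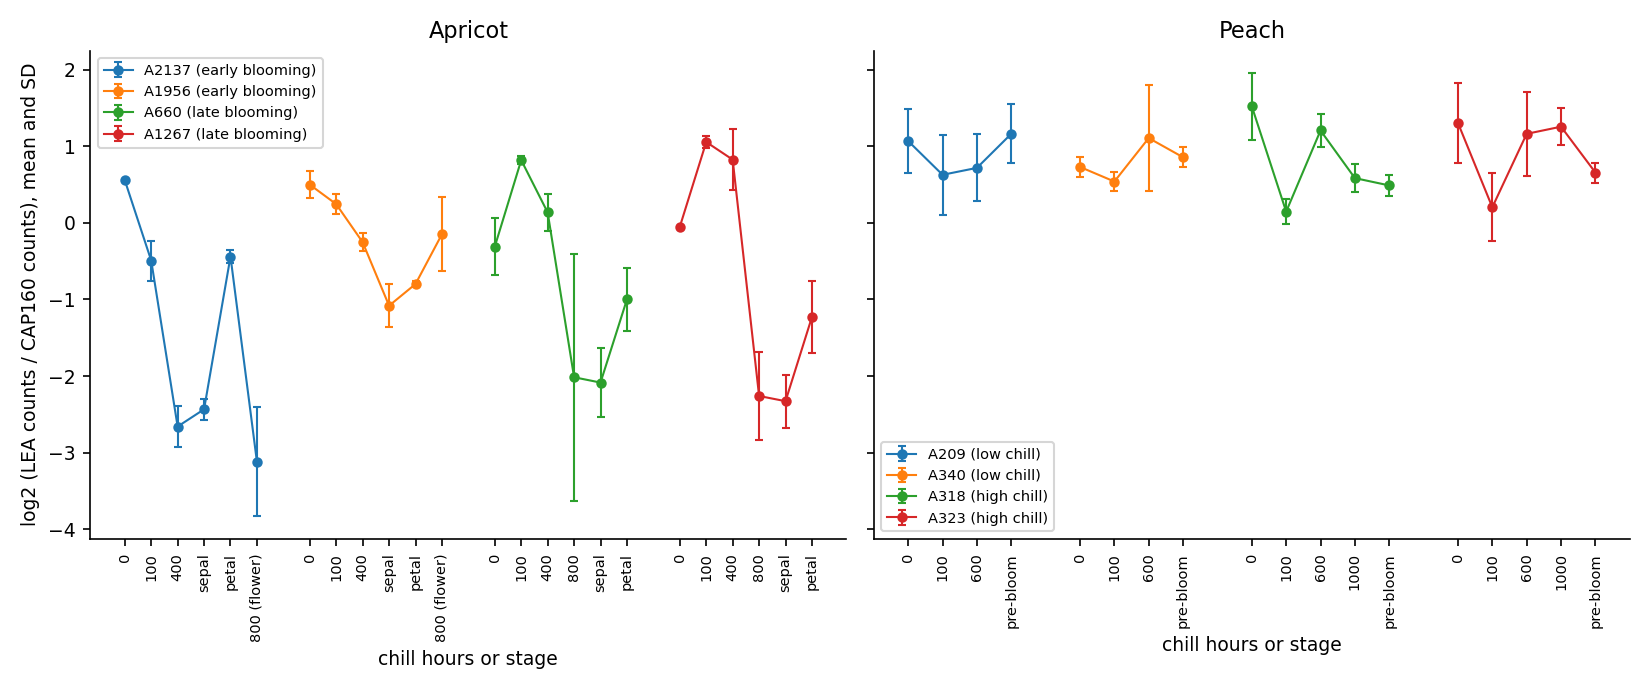
Log2 ratio of LEA counts to CAP160 counts, mean and SD over the libraries of a group, by chill hours or stage in each genotype; groups with 1 library have no bar. The means lie between 0.15 and 1.52 in peach and between -3.12 and 1.05 in apricot.

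Other cold and dehydration protection genes gave a mixed picture. The list held 14 genes, which the study's annotation tables name as COR47, 2 galactinol synthases (GolS2 and GolS4, which start raffinose synthesis), 2 raffinose-related SIP2 genes, 6 genes with LEA in their annotation, 2 DREB2C genes (dehydration-response transcription factors) and a dehydration-associated gene. Of those 6, 1 is a LEA domain gene and the rest are annotated as LEA hydroxyproline-rich family. The study chose those tables on these libraries, so their direction is not independent evidence. In each species 13 genes of the list passed the low-count filter, though not the same 13 in both. Of the 13 in peach, 4 were called higher and 0 lower from 0 to 100 chill hours in A209. The counts were 2 and 1 in A340, 3 and 1 in A318, and 4 and 1 in A323. Of all genes tested, 6.53%, 8%, 6.49% and 7.83% were called higher in that step in the same order. The shares called lower were 7.43%, 8.38%, 8.96% and 13.8%. The median log2 fold change of the list in that step lay between -0.03 and 0.40, and that of all genes between -0.22 and -0.06. COR47 was called higher in all 4 genotypes, by 1.38 in A209 (edgeR adjusted p = 3.67e-04), 1.75 in A340 (edgeR adjusted p = 1.15e-05), 1.39 in A318 (edgeR adjusted p = 0.00191) and 1.498 in A323 (edgeR adjusted p = 7.80e-05). The dehydration-associated gene Prupe.7G220100 was called higher in all 4 as well, by 1.16 to 1.30. In the same step in apricot, 0 of the 13 were called higher and 2 lower in A1956. Of all genes tested there, 11.7% were called higher and 9.99% lower. In A660, 2 of the 13 were called higher and 1 lower, where 14% of all genes were called higher and 13.9% lower.

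In A1267 from 400 to 800 chill hours, 5 of the 13 genes were called lower and 0 higher. Of all genes tested, 13.8% were called lower and 15.7% higher. The median was -0.45 for the list and 0 for all genes. The 5 were a LEA domain gene, Prupe.1G554000 (-4.42), GolS2 (-3.96), COR47 (-2.98), GolS4 (-2.28) and Prupe.7G220100 (-1.497). In A1956 from 400 chill hours to sepal visible, 6 were called lower and 2 higher. Of all genes tested, 20.7% were called lower and 26.5% higher. The median was -0.51 for the list and 0.04 for all genes, and COR47 fell by 3.54 (edgeR adjusted p = 9.08e-10). At pre-bloom in peach, 7 of the 11 genes tested in the class fit were called higher in low chill than in high chill buds and 1 lower. Of all genes tested, 16.1% were called higher and 17.4% lower. The median was 1.44 for the list and -0.03 for all genes. Among those 7 were GolS4 (2.68), GolS2 (2.67), COR47 (2.37, edgeR adjusted p = 4.34e-13) and the DREB2C gene Prupe.2G256900 (2.02). Each gene named here changed in the direction of LEA and CAP160 in the comparison given for it, and not all other members did. Over group means GolS2 and GolS4 each correlated with LEA at only 0.20 in apricot, and at 0.78 and 0.76 in peach. Correlations over group means were taken for the list members tested in both species, which leaves out Prupe.1G554000. In apricot those with LEA ran from -0.89 (a LEA hydroxyproline-rich gene) to 0.89 (COR47), with -0.70 for a SIP2 gene. In peach the same hydroxyproline-rich gene was lowest (-0.42) and a DREB2C gene highest (0.96).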

How the data were processed

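The authors deposited raw counts of reads per gene for 60 apricot and 69 peach libraries. Single-end apricot and paired-end peach reads were trimmed, peach reads matching ribosomal RNA were removed, and both species were aligned to the peach genome v2.0, per the study's methods, with STAR 2.5.3a and counted over exons with HTSeq, which the submitters' processing notes name. Apricot counts thus depend on how well apricot reads match peach genes. The HTSeq version and the handling of strand and of reads with several matches were not given in the sources used here. None of the 26872 gene identifiers matched the RefSeq table at hand (0 matched), so gene names are the study's and no sequence is shown.

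Groups came from the sample labels. Each species was fitted with edgeR 4.0.16 (R 4.3.3) over all genes kept by a minimum count of 10 and a minimum total of 15, with TMM scaling and the quasi-likelihood test. Steps within genotypes used groups of genotype and time point, and class comparisons used groups of class and time point. The p-values are two-sided and Benjamini-Hochberg adjusted over all genes tested, with a threshold of 0.05. The SE is the fold change divided by the root of F, and 95% intervals are normal approximations from it. Log2 CPM used a prior count of 2. The tests were checked on simulated counts. No 2 libraries of a group agreed within counting noise (chi-square per degree of freedom of at least 3.43). The p-values of fits by genotype measure the spread between trees of 1 clone. In class fits the libraries of 2 genotypes count as replicates, so those p-values also hold the spread between genotypes. The named genes were both members, a list of 14 cold and dehydration genes from the study's annotation, and the 5 genes most like each member by the smaller of its 2 correlations over group means. Members and lists were chosen with earlier results of these data known, and contrasts from which the genes were drawn, or with 1 library in a group, carry no p-value. A planned test of early against late apricots at 400 chill hours is not given, since it sets ecodormant A2137 buds against endodormant ones. Alternatives were DESeq2 1.42.0, its size factors, fits of only the compared libraries, omission of the filter on low counts, a replicate block, class means of genotypes, leaving out low-depth libraries (under the species median divided by 4) and leaving out each library. Each left-out library reused the genes and trended dispersions of the full fit, and a library left alone in its group was assumed to vary like the other groups. Figures were drawn with matplotlib 3.10.9.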

Additional observations from a re-analysis of the deposited data

Results flagged for a closer look

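Over both genes, 30 sets of 4 libraries were checked, and 4 values stood apart from the other 3 libraries of their group by Dixon's criterion, which chance meets in about 1 in 20 groups. In A323 at pre-bloom, replicate 1 held 154 CPM of LEA, against 17.8 to 37.5 CPM in the other 3 libraries. The same library held 104 CPM of CAP160, against 10.7 to 23.7 CPM. Without it the difference between A323 and A318 at pre-bloom was -0.45 for LEA (edgeR adjusted p = 0.718) and -0.66 for CAP160 (edgeR adjusted p = 0.432), the reverse in sign of the values with it, and neither passed the test. In A323 at 1000 chill hours, replicate 3 held 63.3 CPM of CAP160, against 135 to 148 CPM. In A209 at 600 chill hours, replicate 1 held 142 CPM of CAP160, against 58.95 to 60.6 CPM, and without it the difference from 100 chill hours was -4.78.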

How the results depend on the processing

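All values are log2 differences, later minus earlier, early minus late, low minus high chill or A323 minus A318. Of the 102 results, 101 kept direction and call with the DESeq2 Wald test, 101 with its size factors and 101 with no low-count filter. The exceptions were small differences that never passed the test: CAP160 in A1267 from sepal to petal visible was 0.0021 with the Wald test and 0.0025 with the size factors, and the low minus high difference in the LEA step to 100 chill hours was -0.014 with no filter.

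With the compared libraries alone, 86 of 98 results kept direction and call. Those that lost it were LEA in A1267 from 100 to 400 chill hours (1.25), CAP160 in A660 from 800 chill hours to sepal visible (-1.16), CAP160 in A318 from 600 to 1000 chill hours (-1.35), and early minus late for CAP160 (-1.48) at 800 chill hours. Those that gained one were CAP160 in A1956 flowers (0.96), in A2137 at sepal visible (-0.70), in A660 at 100 chill hours (0.59) and in A323 at 600 chill hours (-1.14), LEA in A318 at 600 chill hours (-0.73), early minus late at sepal visible for LEA (-0.92) and CAP160 (-1.12), and low minus high for CAP160 at 100 chill hours (-0.68). Class differences as means of genotypes passed the test for LEA at 100 chill hours (-1.58) and sepal visible (-0.92) and for CAP160 at sepal (-1.34) and petal visible (-0.99), and 16 of 20 were unchanged in call.

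Without the low-depth libraries 39 of 46 results kept direction and call. LEA in A340 to pre-bloom (1.32) lost its call. With 1 A318 library left at 1000 chill hours, the A318 changes to pre-bloom were -0.69 for LEA and -0.68 for CAP160, and A323 minus A318 at 1000 chill hours (1.93 and 1.18) and in the step from 600 to 1000 (1.22 and 0.44) changed sign. The cause was not tested.

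With the replicate block no call changed. The LEA difference between chill classes in the step to 100 chill hours was -0.074, and LEA in A2137 from 0 to 100 chill hours was -0.60. The replicate numbers share only a number: of 24 steps with 3 or more pairs, every pair's correlation was over 0.1 in 1, and pair correlations over 32 steps ranged from -0.23 to 0.36.

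Leaving out single libraries kept direction and call in 797 of 844 fits. The range for CAP160 was -0.179 to 0.0617 in A1267 from sepal to petal visible, 1.40 to 1.48 in A1956 to 100 chill hours, -4.78 to -4.18 in A209 to 600, -2.15 to -1.74 in A2137 to 400, -1.80 to -1.05 in A318 to 1000, -1.59 to -0.84 for A323 minus A318 at 1000, -0.66 to 0.75 for the same at pre-bloom, -1.57 to -0.53 in A660 to sepal visible, -1.09 to -0.86 from there to petal visible, and, early minus late, -2.15 to -1.28 at 400 and -1.71 to -1.12 at 800 chill hours. For LEA it was 0.80 to 1.48 in A1267 to 400 chill hours, 0.81 to 1.21 from sepal to petal visible, 1.10 to 1.27 in A1956 to 100, 1.23 to 1.98 in its flowers, -4.34 to -3.89 in A2137 to 400, -0.0756 to 0.373 from sepal to petal visible, -0.56 to 0.48 in its flowers, -0.27 to 0.39 in A660 from sepal to petal visible, 1.33 to 2.13 in A340 to pre-bloom, -0.45 to 0.88 for A323 minus A318 at pre-bloom, -0.11 to 0.17 for low minus high in the step to 100 chill hours, and, early minus late, -0.24 to 0.16 at 0, -3.26 to -2.21 at 400 and -0.93 to 0.28 at 800 chill hours. By Spearman correlation 2 of the 5 genes most like LEA stayed on its list.

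Depth limited the peach libraries at 1000 chill hours and pre-bloom most, and the early and late or low and high classes rest on 2 genotypes each.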
